A study of Mus musculus with 3 samples.

Results

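The Stmn2-high cells of mouse motor neuron conversion cultures grown with supplements were 959 of 2314 kept cells of their library, 41.4% (95% interval 39.4 to 43.5), and came from a series of 10522 kept cells. They were chosen by 1 transcript, as cells of the 14 dpi library with supplements (dpi is the time unit of the labels) that held 5 or more unique molecular identifiers (UMIs, counts of captured transcripts) of Stmn2. A kept cell had at least 500 detected genes and at most 20% of its UMIs from mitochondrially encoded genes. The comparison cells were the 1171 kept cells of the same library with 0 or 1 Stmn2 UMI, and 184 cells with 2 to 4 lay between. Because the choice of cells used these same counts, every difference between the sets is a description, with no test.

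The cultures began as mouse embryonic fibroblasts carrying Hb9::GFP, in which green fluorescent protein is under the control of Hb9 (Mnx1), a homeobox gene that motor neurons express. All libraries shared the reporter, the LNI cassette, which joins Lhx3, Neurog2 with an HA tag and Isl1, and DDRR, which joins HRAS with the activating change G12V to p53DD, a fragment that blocks p53. At 14 dpi, live reporter-positive cells were sorted from a culture with BDNF, CNTF, GDNF, FGF and RepSox, an inhibitor of a TGF-beta receptor kinase, and from a culture without these supplements. That the first had them is stated in the design text of the series, and its own sample labels give no treatment. Cells with little of a dye that is diluted by division were sorted at 4 dpi, also with supplements, for the third library. Each group was 1 library, so no value has a replicate check, and intervals cover counting error only. Reads do not separate introduced from endogenous Lhx3, Neurog2, Isl1, HRAS or p53 transcripts, and the reporter gate was part of the choice of all 14 dpi cells.

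Stmn2 encodes stathmin 2 (SCG10), a protein of growing axons that binds tubulin and regulates microtubule turnover. Neurons that release peptides make them as precursors, which prohormone convertases cleave and granins help to pack into dense-core vesicles. Synaptotagmins and complexins then act in the fusion of vesicles with the membrane. Motor neurons are cholinergic, and several neuropeptide transcripts, galanin among them, are known to be induced in motor and sensory neurons after axon injury.

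The Stmn2 level had no sharp gap at the threshold. Members held a median of 24 Stmn2 UMIs, with quartiles of 11 and 43 and a range of 5 to 207. Just outside the rule, 49 cells held exactly 4 UMIs, and just inside it 40 cells held exactly 5. Their depths were close, with medians of 11219 and 11159 UMIs per cell, and the same list of pan-neuronal genes without Stmn2 summed to 10539 and 10741 CPM in them, where CPM is the pooled count per 1000000 UMIs of the cells named. Members as a whole were deeper than comparison cells, with a median of 16031 against 13158 UMIs and 4374 against 3789 genes per cell. The share of UMIs from mitochondrially encoded genes was 6.66% against 5.09%, and that from ribosomal protein genes 10.4% against 16.4%.

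**Figure D1:**
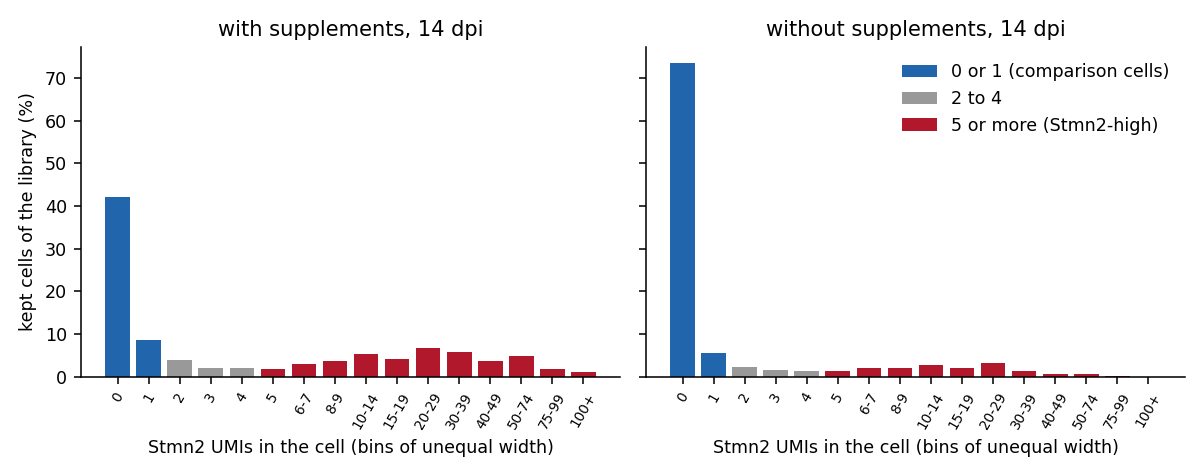
Share of kept cells (%) by the number of Stmn2 UMIs in the cell, for the 14 dpi libraries with supplements (left) and without (right); colours mark comparison cells, the cells between and Stmn2-high cells, and bins differ in width. Stmn2-high cells were 41.4% of kept cells with supplements and 15.9% without.

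The label of neurons was checked against marker lists. Of 25 pan-neuronal genes, 23 reached 10 CPM over all kept cells, the level from which a gene is called measured here. Their summed share of UMIs had a median of 1.26% per member cell (quartiles 0.958 and 1.60) and 0.667% per comparison cell (0.351 and 1.11). Fibroblast genes had 0.206% against 0.459%. The comparison cells were themselves a mixture: 517 of 1171 (44.2%) held 5 or more UMIs of the neuronal tubulin Tubb3, against 821 of 959 members (85.6%). Cells rich in matrix transcripts, with 10 or more UMIs of Col1a1, Col1a2 and Col3a1 together, were 119 of the members (12.4%) and 492 of the comparison cells (42.0%). Cells with 10 or more UMIs over a list of cell cycle genes were 74 members (7.72%) and 298 comparison cells (25.4%). The ratios that follow therefore set Stmn2-high cells against a mixture that includes other neuronal cells, fibroblast-like cells and dividing cells. Where leaving out the matrix-rich and the cycling cells, which left 787 members and 551 comparison cells, moved a ratio by over 1.5 times, the value without them is given. Most genes on the lists of immune, red blood, epithelial, glial, Schwann and muscle cells were below the measuring level. No immune, epithelial or red blood cell gene of the lists was measured, and their lists summed to 6.06, 8.89 and 0 CPM in members. Of the lists of astrocytes and oligodendrocytes, of Schwann cells and of muscle, 3 of 13, 2 of 10 and 1 of 10 genes were measured. Slc1a2 (log2 ratio 1.02), Tnnt1 (1.01) and Gap43 (1.58), also an axon growth gene, were 2-fold higher in members. Slc1a2 was under 2-fold, at 0.76, without the matrix-rich and cycling cells, and Tnnt1, at 0.69, without the matrix-rich cells alone. Slc1a3 was 2-fold lower (-2.19), and Cnp and Pmp22 were within 2-fold. On the chromaffin and sensory list 2 of 13 genes were measured, Chga and Tac1 (0.07). Chga had 63.5 against 20.6 CPM (1.63, and 0.89 without the matrix-rich and cycling cells). Of 8 retained barcodes shared with another library, 4 were members.

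Over all 8758 measured genes the median log2 ratio of members over comparison cells was 0.07. At least 2-fold higher with a counting interval above no difference were 551 genes, 6.29% of those measured, and 479 genes, 5.47%, were lower by that rule. In cells neither matrix-rich nor cycling these counts were 352 and 210 of 8590 measured genes, 4.10% and 2.44%.

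**Figure D2:**
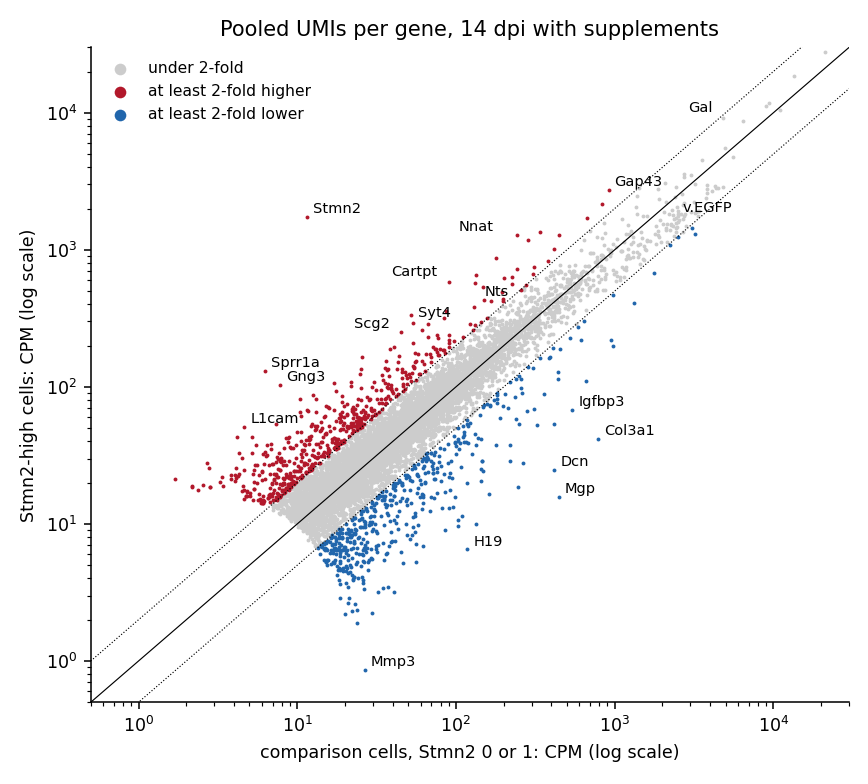
Pooled level of each measured gene in CPM in comparison cells (horizontal) and Stmn2-high cells (vertical), both on log scales; the solid line marks equal levels and the dotted lines 2-fold. Stmn2, by which the cells were chosen, stands at 1747 against 11.5 CPM, and Col3a1 at 41.8 against 786 CPM.

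Stmn2 itself stood at 1747 CPM in members (interval 1727 to 1767) and 11.5 CPM in comparison cells, which the rule sets. The gene with the next highest ratio was Sprr1a, a small proline-rich protein known to be induced in injured sensory and motor neurons, at 130 against 6.24 CPM (log2 ratio 4.38, interval 4.10 to 4.68). Gng3, a G protein gamma subunit of neurons, followed at 104 against 7.83 CPM (3.73). The cell adhesion molecule L1cam, which acts in axon growth, had 50.8 against 4.65 CPM (3.45), and 2.73 in cells neither matrix-rich nor cycling. Scg5, a chaperone of a prohormone convertase, had 81.0 against 10.4 CPM, a log2 ratio of 2.96. Cplx1, a complexin that acts in vesicle fusion, had 87.7 against 12.5 CPM (2.81, and 2.04 without the matrix-rich and cycling cells). Myt1l, a transcription factor that keeps neurons from other fates, had 17.7 against 2.36 CPM. Mapt, the microtubule protein tau, had 165 against 25.7 CPM (2.68, and 1.91 without those cells). All 24 genes with the highest ratios after Stmn2 lay between 2.67 and 4.38 on the log2 scale.

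The stathmins and the axon growth genes were higher in members together. Beside Stmn2, the stathmin genes Stmn4 (333 against 52.3 CPM, log2 ratio 2.67) and Stmn3 (872 against 178 CPM, 2.30) were past 2-fold, and Stmn1, which dividing cells also use, was not (1576 against 857 CPM, 0.88). Without the matrix-rich and cycling cells Stmn4 had a ratio of 2.05, Stmn3 one of 1.55 and Stmn1 one of 0.88. Leaving out the cycling cells alone put Stmn1 past 2-fold, at 1.13. All 26 axon growth and cytoskeleton genes were measured and had a ratio above 0, and 14 of them were past 2-fold, with a median of 1.20. In cells neither matrix-rich nor cycling 11 of 26 were past 2-fold. Gap43, a growth cone protein, had 2738 CPM against 915 CPM (1.58). At the lower end of the list stood Tuba1a, a tubulin of young neurons, at 3084 against 2083 CPM (0.57), and the adhesion molecule Cntn2 at 177 against 155 CPM (0.19).

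Of the 23 measured pan-neuronal genes, 15 were at least 2-fold higher and none was 2-fold lower, with a median log2 ratio of 1.41. Syn1, a vesicle phosphoprotein, had 60.3 against 14.7 CPM (2.03), and Crmp1, a protein of growth cone signalling, 320 against 84.4 CPM (1.92). The neurofilament transcripts did not follow Stmn2. Nefl, the light subunit, had 1954 CPM in members and 2295 CPM in comparison cells (-0.23), and Nefm, the medium subunit, 1501 against 1809 CPM (-0.27). Thy1, which is also on the fibroblast list, had the lowest ratio of the pan-neuronal list, at 28.9 against 45.1 CPM (-0.64). With each cell thinned to 5000 UMIs it was past 2-fold lower, at -1.02.

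The neuropeptide precursors differed from each other. Cartpt, the precursor of the CART peptides, had 580 CPM in members (569 to 591) and 90.9 CPM in comparison cells (86.5 to 95.6), a log2 ratio of 2.67. Nts, the precursor of neurotensin and neuromedin N, had 575 CPM (563 to 586) against 132 CPM (126 to 137), a ratio of 2.12. Without the matrix-rich and cycling cells the ratio of Cartpt was 1.54 and that of Nts 1.45, still past 2-fold. Gal, the galanin precursor, had 9171 against 4811 CPM (0.93, and 0.32 without those cells) and stayed under 2-fold. Vip, the precursor of vasoactive intestinal peptide, had 87.9 against 53.2 CPM (0.72). Cck, the cholecystokinin precursor, was lower, at 83.5 against 158 CPM (-0.92, and -1.39 without those cells). Penk, the enkephalin precursor (-1.65), and Apln, the precursor of apelin (-1.54), were more than 2-fold lower, both under 10 CPM in members. Of 28 listed precursors 11 were measured, 4 of them 2-fold higher and 2 lower, with a median of 0.72.

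Detection bears on these levels, because free RNA gives UMIs in cells that do not make a transcript. With each cell thinned to 5000 UMIs, which kept 927 members, 1026 comparison cells and 632 matrix-rich cells, 43.6% of members and 8.77% of comparison cells held a Cartpt UMI, against 12.2% of matrix-rich cells. For Nts the shares were 40.7%, 11.1% and 14.7%. Unthinned, 58.1% of members and 15.4% of comparison cells held Cartpt, and 53.6% and 18.9% held Nts. The median depth of the matrix-rich cells was 17652 UMIs. Before thinning, 119 of these 640 cells were themselves members and 492 were comparison cells. The sets thus overlap, and the matrix-rich shares cannot give the level of free RNA. Shares in comparison cells were below those in matrix-rich cells for both peptides, and the members were above both.

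The sequence just upstream of several of these genes is shown because peptide, granin and injury genes stood among the highest, and because the letters of 2 well-known response elements could be searched in them. The windows are the 250 bases before the annotated start in the RefSeq table of build GRCm38.p6, an older build than the GRCm39 of the counts, matched by gene symbol and read 5′ to 3′ along the gene. The genes were chosen after their values were seen, and every window shown holds a match. Capitals mark the cyclic AMP response element TGACGTCA and the AP-1 element TGAGTCA, searched on both strands; neither motif contains the other.
Cartpt, chr13:99900684-99900933, minus strand: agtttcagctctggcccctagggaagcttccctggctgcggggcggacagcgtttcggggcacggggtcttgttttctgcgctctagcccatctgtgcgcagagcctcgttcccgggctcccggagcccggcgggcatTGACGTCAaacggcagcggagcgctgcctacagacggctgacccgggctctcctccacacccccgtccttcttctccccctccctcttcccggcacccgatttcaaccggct
Scg2, chr1:79440027-79440276, minus strand: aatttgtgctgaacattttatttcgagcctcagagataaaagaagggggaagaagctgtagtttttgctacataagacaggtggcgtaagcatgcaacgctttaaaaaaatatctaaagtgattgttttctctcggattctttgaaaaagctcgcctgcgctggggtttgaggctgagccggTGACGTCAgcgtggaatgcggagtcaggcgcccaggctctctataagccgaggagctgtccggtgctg
Nts, chr10:102490419-102490668, minus strand: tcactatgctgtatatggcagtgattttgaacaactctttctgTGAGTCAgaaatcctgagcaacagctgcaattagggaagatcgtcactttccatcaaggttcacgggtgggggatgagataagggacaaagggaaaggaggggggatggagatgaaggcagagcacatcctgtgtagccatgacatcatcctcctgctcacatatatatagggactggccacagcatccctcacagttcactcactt
Sprr1a, chr3:92485882-92486131, minus strand: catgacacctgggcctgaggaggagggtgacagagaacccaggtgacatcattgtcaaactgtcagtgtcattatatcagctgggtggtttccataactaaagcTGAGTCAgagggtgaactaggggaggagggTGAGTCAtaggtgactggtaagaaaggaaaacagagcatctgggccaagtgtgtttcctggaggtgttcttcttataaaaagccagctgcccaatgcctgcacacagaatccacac
Mmp3, chr9:7445572-7445821, plus strand: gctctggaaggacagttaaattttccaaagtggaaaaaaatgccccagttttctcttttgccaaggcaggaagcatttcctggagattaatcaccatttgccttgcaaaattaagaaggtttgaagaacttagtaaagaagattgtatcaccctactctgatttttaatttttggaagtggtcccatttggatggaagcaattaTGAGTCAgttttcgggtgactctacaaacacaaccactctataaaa
The cyclic AMP element starts 112 bases before the start of Cartpt and 68 bases before that of Scg2. The AP-1 letters start 207 bases before Nts, and 146 and 116 bases before Sprr1a. They also start 46 bases before Mmp3, a matrix protease and the gene with the lowest ratio of all. The cyclic AMP element is in 1.62% and the AP-1 element in 4.43% of the 27025 windows of the table. Over the 7062 measured genes with a window the shares were 3.21% and 2.55%, so which element is the more frequent depends on the genes counted. Of 173 named genes with a window, 7 held the first and 6 the second. The 7 include the granzyme genes Gzmc, Gzmf and Gzmg, which were not measured here, and Plk2, which was lower in members. Gal, Vip, Cck, Scg3, Scg5, Hrk and Smad1, of the peptide, granin and injury lists, held neither. A match is a description of letters in this window and says nothing of binding.

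Genes of dense-core vesicles were higher as a group. Of 14 measured granin and prohormone-processing genes, 10 were 2-fold higher and 1 was lower, with a median log2 ratio of 1.58. In cells neither matrix-rich nor cycling, 6 of 14 were 2-fold higher and the median was 0.98. Scg2 (secretogranin 2, the precursor of secretoneurin) had 250 against 44.8 CPM, a ratio of 2.48, and 1.60 without those cells. Scg3, a granin that binds cholesterol-rich vesicle membrane, had 196 against 40.9 CPM (2.26), and Vgf, a secreted precursor that nerve growth factor induces, 262 against 61.5 CPM (2.09). Those ratios were 1.66 and 1.37 without those cells. The exception was Cadps2, a priming factor of these vesicles, at 6.41 against 18.2 CPM (-1.51).

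Release machinery followed the same direction. Of 21 measured synaptic vesicle and release genes, 15 were 2-fold higher and none was lower, with a median of 1.24. Without the matrix-rich and cycling cells 9 of 22 were 2-fold higher. Syt4, a synaptotagmin of dense-core vesicles, had 294 CPM (286 to 303) against 53.3 CPM (2.47, and 1.81 without those cells), and Syt11, a related protein that does not bind calcium, 359 against 86.1 CPM (2.06). Syt1, the fast calcium sensor, had 187 against 117 CPM (0.67), and Sv2b, a vesicle glycoprotein, 20.8 against 33.3 CPM (-0.68).

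Channel and receptor genes were few above the measuring level, and most of these were higher. Potassium channel genes were 2-fold higher in 6 of 9 cases, with a median of 1.34. Kcnd3, a subunit of the A-type current, had 27.5 against 6.18 CPM (2.15). Of 8 sodium and calcium channel genes 3 were 2-fold higher, among them the presynaptic calcium channel Cacna1b at 84.7 against 27.6 CPM (1.62). Of 7 measured glutamate and GABA receptor genes 5 were higher and 1 was lower. The AMPA receptor subunits did not move together: Gria2 had 109 against 22.0 CPM (2.31) and Gria4 68.3 against 17.0 CPM (2.01, and 1.29 without the matrix-rich and cycling cells), and Gria3 had 18.2 CPM in members (-1.14, and -0.72 without those cells).

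**Figure D3:**
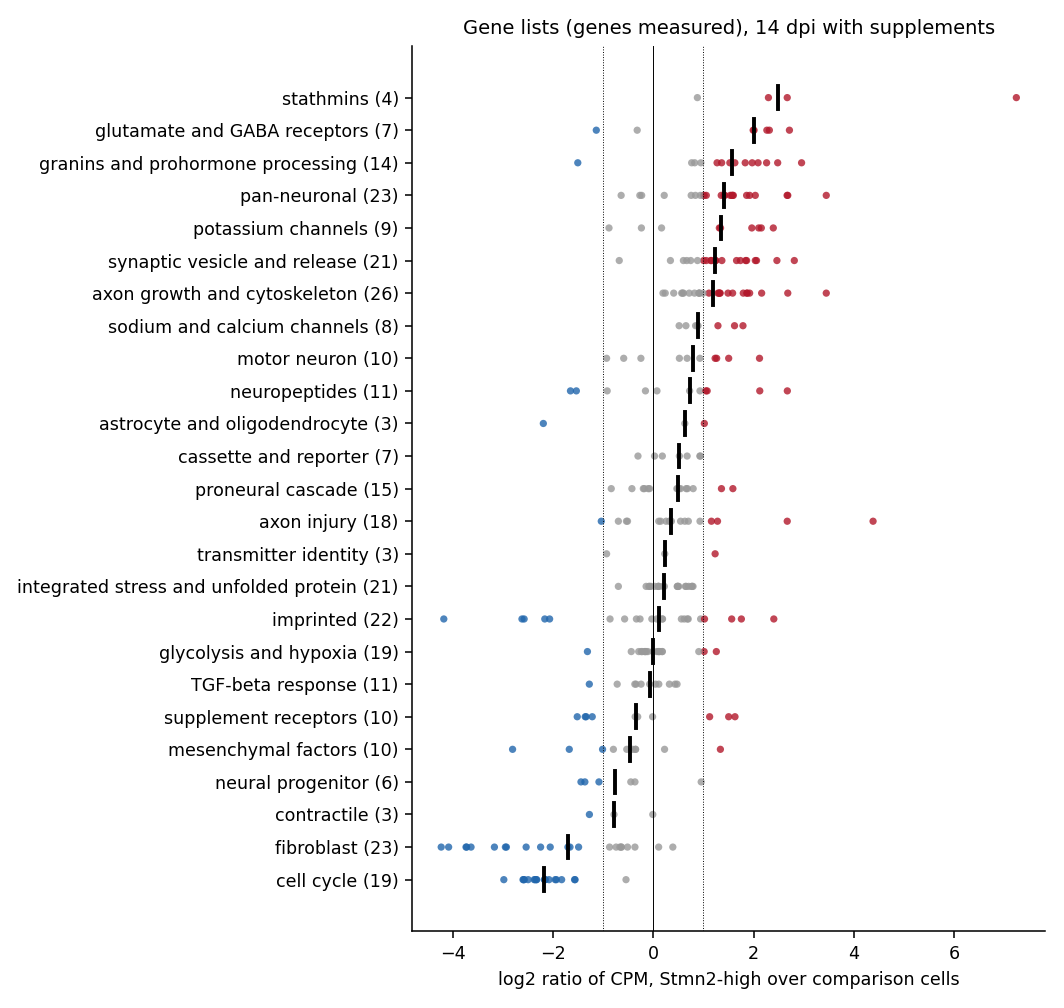
Log2 ratio of CPM in Stmn2-high over comparison cells for every measured gene (points) of each list with at least 3 measured genes; bars mark the list median, numbers in brackets the genes measured and dotted lines 2-fold. Medians run from 2.48 for the stathmins, of which Stmn2 chose the cells, to -2.17 for the cell cycle list.

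Motor neuron genes were higher in part. Of 18 listed genes 10 were measured and 4 of these were 2-fold higher, with a median of 0.80. The 4 were Ecel1, Ret, Prph and Slc18a3. Ecel1, a membrane protease of motor and injured neurons, had 53.4 against 12.3 CPM (2.12), and Ret, the GDNF receptor kinase, 81.5 against 28.7 CPM (1.50). The intermediate filament Prph had 64.1 against 26.7 CPM (1.26) and the vesicular acetylcholine transporter Slc18a3 22.6 against 9.60 CPM (1.23). Without the matrix-rich and cycling cells their ratios were 1.30, 0.91, 0.27 and 0.56, so only Ecel1 of them stayed past 2-fold. In cells neither matrix-rich nor cycling 2 of 11 measured genes of the list were 2-fold higher and 1 was lower. The choline transporter Slc5a7 went the other way, at 13.7 against 26.1 CPM (-0.93). So did Chodl at 26.1 against 39.3 CPM (-0.59, and -1.06 without the matrix-rich and cycling cells). Foxp1, the highest of the list in members, had 128 against 152 CPM (-0.25). With each cell thinned to 5000 UMIs, Slc5a7 (-1.23) and Chodl (-1.01) were past 2-fold lower. Chat, which makes acetylcholine, was below the measuring level, at 2.31 CPM in members and 1.47 CPM in comparison cells, and is named outside the rule for naming genes.

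None of the 7 cassette and reporter genes was past 2-fold with all UMIs. With each cell thinned to 5000 UMIs, Isl1 (1.11) and Neurog2 (1.02) were past it. The reporter transcript v.EGFP had 2441 CPM in members and 2400 CPM in comparison cells (0.02), and its sign turned to -0.42 without the matrix-rich and cycling cells. Per cell, members held a median of 28 reporter UMIs and comparison cells 18. Neurog2, the proneural factor of the cassette, had 203 against 106 CPM (0.94), and the LIM-domain factors Isl1 and Lhx3 had ratios of 0.93 and 0.67. Mnx1, the gene behind the reporter, had 13.8 against 9.66 CPM (0.52). Of 15 measured genes of the proneural cascade, 2 were 2-fold higher, the zinc finger factors Myt1 (45.5 against 15.1 CPM, 1.59) and St18 (139 against 54.3 CPM, 1.36). Both were under 2-fold without the matrix-rich and cycling cells, at 0.93 and 0.79.

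Genes of the supplement receptor list, which also holds relatives that bind other ligands, were found on both sides, also among receptors that serve 1 ligand. The neurotrophin receptor Ntrk3, whose ligand NT-3 was not a supplement, had 68.5 against 22.1 CPM (1.63), and Cntfr, the CNTF receptor, 31.6 against 14.5 CPM (1.12). Ntrk2, the BDNF receptor, was below the measuring level, at 0.577 CPM in members, and is named outside the rule. Lower in members were the FGF receptor Fgfr1 (40.4 against 104 CPM, -1.36), the TGF-beta receptor Tgfbr2 (44.7 against 113 CPM, -1.34), the LIF receptor Lifr, which also carries the CNTF signal (8.66 against 20.1 CPM, -1.22), and the GDNF family co-receptor Gfra3 (10.4 against 29.7 CPM, -1.52). The GDNF co-receptor Gfra1 (89.0 against 110 CPM, -0.31) and the TGF-beta receptor Tgfbr1 (83.7 against 84.6 CPM, -0.01) were within 2-fold. In all, 3 of 10 measured receptors were higher and 4 lower. The third higher one was Ret, the GDNF receptor kinase, described with the motor neuron genes. In cells neither matrix-rich nor cycling 1 of 9 measured receptors was higher, Ntrk3 at 1.32, and 1 was lower. Cntfr then had a ratio of 0.67, Fgfr1 -0.69 and Tgfbr2 -0.77, all under 2-fold.

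Axon injury genes were mixed. Of 18 measured, 4 were 2-fold higher and 1 was lower, with a median of 0.35, where all measured genes had a median of 0.07 and an upper quartile of 0.39. Beside Sprr1a and Stmn4 these were Smad1, a factor of BMP signalling, at 219 against 90.0 CPM (1.28), and Hrk, a pro-apoptotic BH3 protein, at 38.7 against 17.3 CPM (1.16). Smad1 was at 0.95 and Hrk at 0.68 without the matrix-rich and cycling cells. Plk2, a stress-inducible kinase, was the lower one, at 57.3 against 118 CPM (-1.04). None of the 21 measured genes of the integrated stress and unfolded protein responses was past 2-fold. Sdf2l1, of the endoplasmic reticulum, was at 0.77, and at 1.03 with cells thinned to 5000 UMIs. The amino acid genes Asns (265 against 156 CPM, 0.77) and Mthfd2 (286 against 165 CPM, 0.79) led that list.

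Imprinted genes fell to both sides. Nnat, the paternally expressed neuronatin of neuroendocrine cells, had 1280 CPM (1263 to 1297) against 242 CPM (235 to 249), a log2 ratio of 2.40. Also higher were Snrpn, a neuronal splicing protein gene (99.9 against 29.6 CPM, 1.76), and Nap1l5 (42.8 against 14.5 CPM, 1.56). Lower were H19, a non-coding RNA of growing embryonic tissue (6.52 against 118 CPM, -4.18, and -3.14 without the matrix-rich and cycling cells), the Notch-related Dlk1 (53.1 against 326 CPM, -2.62), Mest (110 against 659 CPM, -2.58) and the cell cycle inhibitor Cdkn1c (68.9 against 309 CPM, -2.17). Without those cells Dlk1 was at -1.92, Mest at -1.96 and Cdkn1c at -1.59. Of 22 measured, 4 were 2-fold higher and 5 lower. Granzyme transcripts, known mostly from cytotoxic lymphocytes, were present in some members: Gzmd had 188 against 38.3 CPM (2.29) and Gzme 138 against 54.5 CPM (1.34). After thinning, 16.9% of members and 6.65% of matrix-rich cells held Gzmd. Reads of these near-identical gene copies may be split by the counting, and the immune list stood at 6.06 CPM.

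The lower side was led by genes of fibroblasts and of division. Of 23 measured fibroblast genes 14 were 2-fold lower and none was higher, with a median of -1.70. Without the matrix-rich and cycling cells 9 of 18 were lower and the median was -1.03. Mmp3 (stromelysin 1) had 0.866 against 26.6 CPM (-4.94, from 15 UMIs in members), and -1.02 without the matrix-rich and cycling cells. Mgp, the matrix Gla protein, had 15.8 against 446 CPM (-4.82, and -3.91 without those cells). The fibrillar collagen gene Col3a1 had 41.8 against 786 CPM (-4.23) and the small proteoglycan genes Dcn and Lum ratios of -4.08 and -3.72. Col3a1 defines the matrix-rich cells, and without them and the cycling cells its ratio was -2.49, with -2.68 for Dcn and -3.06 for Lum. Igf1, a growth factor of mesenchyme, had 9.64 against 103 CPM (-3.42). Not all fibroblast genes were lower: Postn, a matrix protein of activated fibroblasts, had 183 against 140 CPM (0.39) and fibronectin, Fn1, 205 against 190 CPM (0.11). Among mesenchymal transcription factors Snai1 was lower (3.69 against 25.9 CPM, -2.81), Prrx1 was close (395 against 505 CPM, -0.35), and Runx1, a factor of blood and of some sensory neurons, was higher (421 against 167 CPM, 1.34, and 0.85 without the matrix-rich and cycling cells).

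Of 19 measured cell cycle genes 18 were 2-fold lower, with a median of -2.17. Top2a, a topoisomerase of dividing cells, had 19.8 against 118 CPM (-2.57), and Ccnb2, a mitotic cyclin, 3.35 against 26.4 CPM (-2.98). The list defines the cycling cells, and without them and the matrix-rich cells only 3 of its genes were measured, with none past 2-fold. The ratio of Top2a was then -1.09 and that of Ccnb2 -0.28. Progenitor genes differed, with Hes1, a Notch target, at 8.08 against 22.0 CPM (-1.44), Sox2 at 44.1 against 60.2 CPM (-0.45) and the intermediate filament Nes at 42.5 against 21.9 CPM (0.95, and 1.60 without those cells).

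Within the library the groups changed with the Stmn2 level at different points. The summed pan-neuronal level without Stmn2 was 8193 CPM in cells with no Stmn2 UMI, 10389 CPM at 2 to 4 UMIs, 11603 CPM at 10 to 19 and 15814 CPM at 50 or more. The granin list was already at 3762 CPM at 2 to 4 UMIs, against 1683 CPM with none, and stood between 4317 and 5203 CPM from 5 UMIs upward. Fibroblast genes went from 7323 CPM with none to 2306 CPM at 50 or more. Among single genes, Nts had 223 CPM at 5 to 9 and 969 CPM at 50 or more UMIs, and Sprr1a 22.9 CPM at 5 to 9 and 168 CPM at 50 or more. Cartpt was 504 CPM at 5 to 9 and 618 CPM at 50 or more. Gal had no such order, with 10682 CPM at 2 to 4, 6701 CPM at 10 to 19 and 10095 CPM at 50 or more. The median depth was 11832 UMIs in cells with 5 to 9 and 24406 UMIs in those with 50 or more, and depth was thus not even over the bins; its part in this order was not tested.

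**Figure D4:**
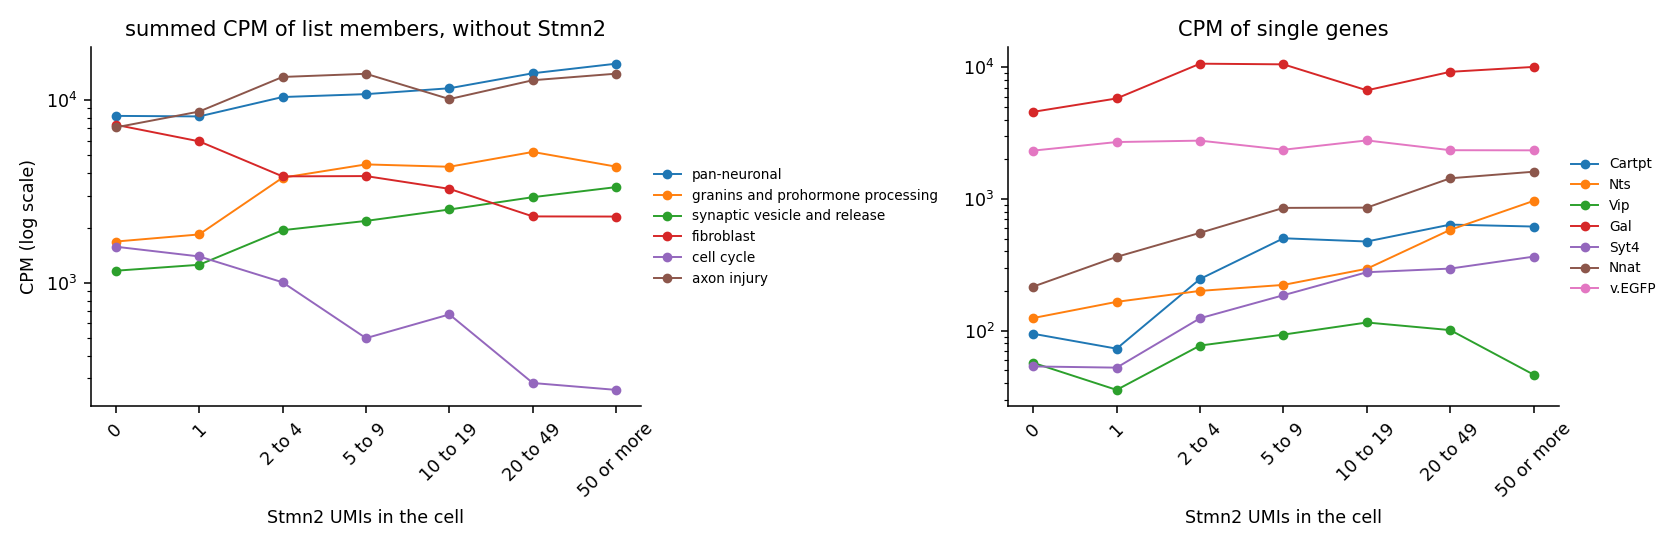
Pooled level in CPM (log scale) of list sums without Stmn2 (left) and of single genes (right) in kept cells of the library with supplements, by the number of Stmn2 UMIs in the cell. Synaptic genes and Nnat go up over the bins, cell cycle genes go from 1577 CPM with no Stmn2 UMI to 260 CPM at 50 or more, and v.EGFP stays between 2334 and 2790 CPM.

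Some transcripts had a large spread among members, 3 peptide precursors among them. The spread was taken as the variance over the mean of UMIs (Fano factor) in the 927 members thinned to 5000 UMIs. Its median over genes was 1.08 and its 95th percentile 1.90. The highest value was that of Gal, 123, with a mean of 41.5 UMIs and a highest cell of 925. Nts (38.9), Nnat (28.9), Sprr1a (25.3) and Cartpt (23.5) were also among the 10 genes of largest spread. The others were Crhbp, the binding protein of corticotropin-releasing hormone (54.8), with 107 UMIs in 1 cell, the nuclear RNA Malat1 (38.4), the actin-binding thymosin Tmsb4x (34.1), the secreted protein Spp1 (27.5) and the fatty acid binding protein Fabp4 (24.4). This measure can also be large for a gene of high level, so a large value need not mean few cells. Tmsb4x, with a mean of 140 UMIs, was at 5 or more UMIs in 99.7% of thinned members. Sprr1a was concentrated in few cells: 12.7% of thinned members held it and 3.67% held 5 or more UMIs. Fabp4 was held by 0.431% of them.

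In most members no peptide of Cartpt, Nts and Vip was abundant. At 5 or more thinned UMIs, Gal was held by 629 members (67.9%), Nts by 160 (17.3%), Cartpt by 152 (16.4%) and Vip by 25 (2.70%). None of Cartpt, Nts and Vip reached that level in 649 of 927 members, 1 of them did in 224, a pair in 49 and all 3 in 5. Cartpt and Nts were together in 41 cells, 4.42%, where the product of their shares is 2.83%. Of the 25 cells with Vip, 10 also had Cartpt and 13 had Nts. Cells with many Nts UMIs had higher Sprr1a (354 against 112 CPM of thinned UMIs in the other members), Scg2 (481 against 211) and Gzmd (376 against 187), and lower v.EGFP (1444 against 2623). Cells with many Cartpt UMIs had Sprr1a at 147 against 155 and v.EGFP at 2303 against 2442, close to the other members, and higher Syt4 (470 against 259). Syt4 was also higher in the cells with many Nts UMIs (442 against 263). The cells with Vip were too few for more than a value: they had 16216 against 8089 for Gal and 888 against 202 for Gzmd.

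The same rule found fewer cells without supplements. There 592 of 3716 kept cells held 5 or more Stmn2 UMIs, 15.9% (14.8 to 17.1), with a median of 14 and a highest cell of 92. Their median depth was 13039 UMIs against 16031 with supplements. At 4 dpi, 0 of 4492 cells did, which allows a share of up to 0.0821%, at a median depth of 2312.5 UMIs. That depth is far lower than at 14 dpi, and the sort gate and the enzyme of dissociation differed too, so that time, depth and these steps cannot be told apart.

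Most of the pattern around Stmn2 was also present in the cells without supplements, which the rule for the described cells did not use. In that library 751 of 8843 measured genes were 2-fold higher in Stmn2-high cells, 8.49%, and 596 were lower, 6.74%. Of the 24 genes with the highest ratios after Stmn2, 18 were measured there. All 18 were 2-fold higher, with ratios from 1.30 for Arhgap36 to 3.68 for Nsg2. Sprr1a, Fam155a, Hecw1, Gm19938, St8sia3 and Hs3st4 were not measured. Of the 15 lowest genes 14 were measured there, without Igf1, and all 14 were 2-fold lower. The measuring level pools all kept cells, so a gene low in either set passes it mainly where the other set is high. These counts, and those that follow, are thus partly set by the filter and are no independent check. Of the 551 genes higher with supplements 457 were measured without them, 383 of these were higher and none was lower. Of the 479 lower genes 434 were measured, with 316 lower and 2 higher. Nts had 90.8 against 5.47 CPM there (log2 ratio 4.05), Cartpt 47.8 against 11.9 CPM (2.01), Syt4 130 against 18.3 CPM (2.83) and Nnat 394 against 57.0 CPM (2.79). The comparison cells with supplements held more of each, with 132 CPM of Nts, 90.9 of Cartpt, 53.3 of Syt4 and 242 of Nnat. Nefl and Nefm, on the lower side with supplements, were on the higher side without them, at 0.26 and 0.34. The neuropeptide list was different there: 3 of 11 measured precursors were higher and 4 lower, with a median of -0.66, where it was 0.72 with supplements. Among them Tac1, the precursor of substance P, had 1.96 against 19.9 CPM there (-3.34) and 24.4 against 23.2 CPM with supplements (0.07). Matrix-rich cells were 52.3% of the comparison cells there. The difference between the libraries in any of these ratios was not tested.

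**Figure D5:**
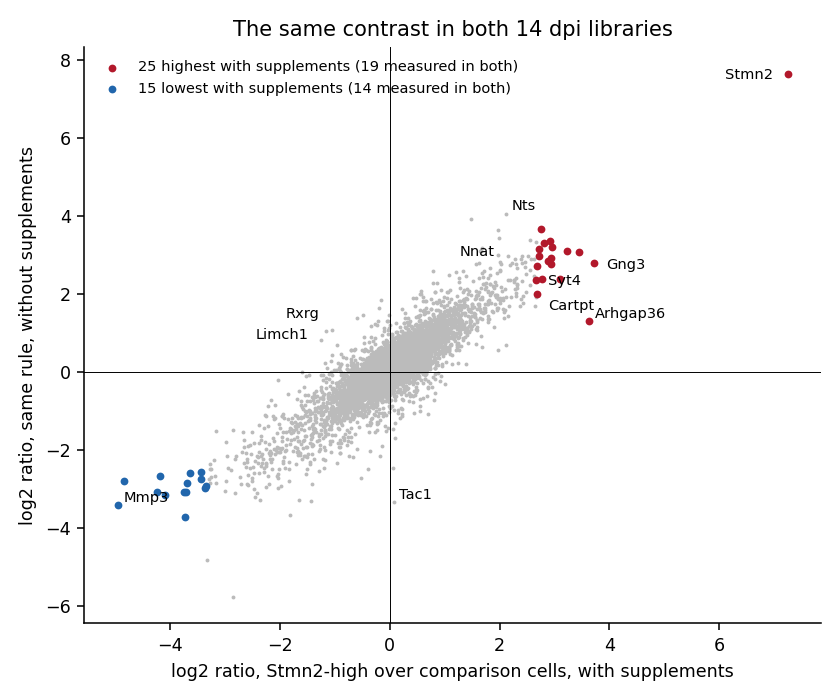
Log2 ratio of each gene measured in both 14 dpi libraries, Stmn2-high over comparison cells, with supplements (horizontal) and without (vertical); coloured points are the genes with the 25 highest and 15 lowest ratios with supplements. All 19 coloured points of the first set, Stmn2 among them, are above 1 on the vertical axis and all 14 of the second are below -1. Genes of these sets that were not measured without supplements have no point.

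The Stmn2-high cells of both 14 dpi libraries were also set side by side, and several peptide, metabolic and motor neuron genes differed. With supplements 320 of 8937 measured genes were past 2-fold upward, 3.58%, and 550 past 2-fold downward, 6.15%. Vip was 87.9 CPM with and 0.763 CPM without supplements, a log2 ratio of 6.85 (5.80 to 8.17). Cartpt (580 against 47.8 CPM, 3.60), Nts (575 against 90.8 CPM, 2.66) and Gal (9171 against 1631 CPM, 2.49) were higher with supplements, as was Sprr1a (130 against 6.54 CPM, 4.32). For Cartpt and Nts the comparison cells were also higher with supplements, by the levels given above, so that difference was not limited to Stmn2-high cells. Comparison cells with supplements also held 53.2 CPM of Vip and 4811 CPM of Gal, above the Stmn2-high cells without supplements. Their Sprr1a, at 6.24 CPM, was close to the level of Stmn2-high cells without supplements. Of 13 measured peptide precursors 7 were higher and 3 lower, among the latter Cck (83.5 against 493 CPM, -2.56). Stmn2 itself, the gene of the rule, was at 1747 and 1208 CPM (0.53). Among motor neuron genes 5 of 11 were 2-fold lower with supplements and none was higher. Ecel1 had 53.4 against 259 CPM (-2.28), Chodl, a marker of fast motor neurons, 26.1 against 98.7 CPM (-1.92) and Mnx1 13.8 against 42.3 CPM (-1.61). Synaptic release genes were 2-fold lower in 5 of 23 cases, among them Syt1 (187 against 396 CPM, -1.09), and higher in 1. The AMPA receptor subunits went apart, with Gria4 at 68.3 against 6.97 CPM (3.29) and Gria2 at 109 against 241 CPM (-1.14).

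The lowest ratio in that comparison was that of Fxyd7, which modulates the sodium pump of neurons and had 3.69 CPM with and 127 CPM without supplements (-5.11). The glycolytic enzyme Aldoc had 3.12 against 45.1 CPM (-3.86) and the mitochondrial protein Bnip3 60.6 against 538 CPM (-3.15). Other lists also differed there: of 11 TGF-beta response genes 5 were lower and 1 higher, of 12 glutamate and GABA receptor genes 5 were lower and 1 higher, and of 22 fibroblast genes 6 were higher and 5 lower. Of 25 glycolysis and hypoxia genes 22 were 2-fold lower with supplements, with a median of -1.65. That list did not separate members from comparison cells within the library with supplements, where its median was -0.01. Higher with supplements beside the peptides were Sox2 (44.1 against 2.51 CPM, 4.14), Ccl12, a chemokine (43.7 against 1.53 CPM, 4.84), the prokineticin receptor Prokr1 (54.6 against 3.38 CPM, 4.01) and Tph1, the first enzyme of serotonin synthesis (101 against 7.41 CPM, 3.76). Prokr1 was also 2-fold higher in members than in comparison cells with supplements (54.6 against 22.6 CPM, 1.27, and 0.66 without the matrix-rich and cycling cells), and Sox2, Ccl12 and Tph1 were within 2-fold there.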

How the data were processed

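The deposited matrices hold UMI counts per gene and cell barcode from 10x Genomics 3′ libraries, and per the file headers Cell Ranger 6.1.1 made them; the submitters' processing notes name build GRCm39. The calling of cells and the use of intronic reads are not stated. Features of the same symbol were summed (31783 to 31744). Kept barcodes had 500 or more genes, and 20% or less of their UMIs came from 13 mitochondrially encoded genes. UMIs were pooled over the cells of a set and given as CPM. Log2 ratios have exact binomial (Clopper-Pearson) 95% intervals on the split of UMIs, CPM exact Poisson ones and shares exact binomial ones, which cover counting error only. A set with 0 UMIs was set to 3 counts. Genes at 10 CPM or more over all kept cells (for libraries compared with each other, over the Stmn2-high cells of both) were measured, and called at 2-fold with the interval not reaching 0. The pooled depth was 17328702 UMIs in members and 16976659 in comparison cells. With 1 library per group no test was run, and no p-value is given.

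Named were the 5 markers given with the rule, the 25 highest and 15 lowest ratios, in each list the 4 highest and 4 lowest measured members (every member of lists of 8 or fewer), the 10 genes of largest Fano factor, and the 10 at each end of the comparison between libraries. A few genes that this rule names are not reported here. Members and lists were chosen with earlier results of these data known. Scrublet in scanpy 1.11.5 called 3 doublets, too few for a caller that worked, so doublets were kept. The ratio and its calls were tested on simulated counts. Alternatives changed depth, thresholds, the comparison cells, scaling, filters and the cells left out. Python 3.11.15, numpy 2.4.6, scipy 1.17.1 and pandas 2.3.3 were used.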

Additional observations from a re-analysis of the deposited data

Results flagged for a closer look

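Of 8227 genes measured in both 14 dpi libraries, 2 were at least 2-fold lower in Stmn2-high than in comparison cells with supplements and at least 2-fold higher without them. Rxrg, a retinoid X receptor, had a log2 ratio of -1.05 with supplements (12.5 against 25.9 CPM) and 1.09 without (24.5 against 11.5 CPM). Limch1, a regulator of non-muscle myosin, had -1.15 with supplements (13.7 against 30.6 CPM) and 1.05 without (33.2 against 16.1 CPM). Both were named after their values were seen, and with 1 library per group the difference between the libraries was not tested.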

How the results depend on the processing

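No paired analysis was possible because each group was 1 library, and leaving out replicates was not possible for the same reason. Across 15 alternative settings, 79 of 92 counts of called genes and of cells stayed within 1.5 times the main one and 13 moved. Without a filter on low values, 1568 genes were 2-fold higher and 1507 lower in members, 2294 and 1251 in the library without supplements, and 1032 and 1503 between the Stmn2-high cells with and without supplements. Without matrix-rich cells 261 genes were lower with supplements, and 496 higher and 251 lower without them. Without matrix-rich and cycling cells, a setting chosen after seeing the data, these counts were 352 higher and 210 lower with supplements, and 455 and 209 without. Of 216 named genes that were measured, 123 were past 2-fold, of which 36 were under 2-fold in at least 1 setting and none changed sign. Of the 93 under 2-fold, 17 were past it in at least 1 setting. The number of members was 768 at 10 or more Stmn2 UMIs and 1053 at 3 or more. Of list medians, that of the cell cycle genes ranged from -2.57 to -0.47, fibroblast from -2.06 to -1.03, pan-neuronal from 1.03 to 1.51 and supplement receptors from -0.70 to 0.08. Setting the median of all genes to 0 left 482 genes higher and 527 lower. What set these shifts was not tested. Genes of under 10 CPM, and rare members such as those with Vip, are limited by the number of UMIs.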

Other observations

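The prokineticin receptor Prokr1 was higher in members than in comparison cells with supplements, at 54.6 against 22.6 CPM (log2 ratio 1.27, and 0.66 without the matrix-rich and cycling cells), and stood at 3.38 against 4.40 CPM without them (-0.38). Saa3, an acute-phase protein, had 23.0 against 7.13 CPM with supplements (1.69) and 1.42 against 5.79 CPM without (-2.03), where it was under the measuring level. The adhesion receptor Itga1 was lower in members in both libraries, at 21.1 CPM in members with supplements (-1.81, and -0.86 without the matrix-rich and cycling cells) and 1.53 against 19.4 CPM without (-3.67). Among transporters of glial cells, Slc1a3 had 12.1 against 55.2 CPM with supplements (-2.19) and Slc1a2 21.5 against 10.6 CPM (1.02, and 0.76 without those cells). None of these differences between libraries was tested.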
